A study of Mus musculus with 12 samples.

Results

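Nuclear receptors are transcription factors whose activity is set by small lipophilic ligands. A set of genes that encode them, which leaves out the COUP-TF genes, *Rora*, *Rorb* and *Nr4a1* among others, was followed in the newborn dorsolateral geniculate nucleus (dLGN), the thalamic relay of vision, of *Sox2* and *Nr2f1* thalamic mutants. The set had 37 members, taken by symbol from the 24480 genes of each count table, and all 37 were found in both tables. RNA-seq had been done at postnatal day 0 (P0) on 12 libraries in 4 groups of 3, each library a pool of dLGNs from 3 animals. *Sox2* mutants were Sox2flox/flox;Ror-alphaCre and their controls Sox2flox/flox or Sox2flox/+ without Cre. *Nr2f1* mutants were Nr2f1 flox/flox;Ror-alphaCre. The label of their controls lists these alleles too but also says that Cre was absent. The study's methods give these controls as Nr2f1 flox/flox or Nr2f1 flox/+ littermates without Cre. Cre was expressed from the *Rora* locus, which, per the study, deletes in postmitotic cells of the sensory thalamus. Since no control carried Cre, effects of the Cre allele cannot be told apart from those of the deletions. By their column names, the *Sox2* line has control libraries 1, 2 and 3 and mutant libraries 1, 3 and 4, and the *Nr2f1* line has control libraries B, D and E and mutant libraries A, B and C.

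Thyroid hormone and retinoic acid receptors bind DNA mostly as dimers with a retinoid X receptor (RXR), repress their target genes together with corepressors when no ligand is bound, and activate them together with coactivators once it is. Some steroid receptors, the glucocorticoid receptor among them, enter the nucleus when they bind hormone, whereas several orphan receptors act mainly through their own abundance. In the developing brain thyroid hormone drives the maturation of neurons and glia, retinoic acid made largely in the meninges acts on nearby tissue, and REV-ERB receptors repress genes of the circadian clock.

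The tables held between 39293465 and 50095344 counts per library. Levels are given as CPM (counts scaled to a common library size) after TMM normalization, and differences as log2 fold changes of mutants over the controls of their line with the standard error. A gene was called changed at a false discovery rate (FDR) below 0.01, the Benjamini-Hochberg adjusted p of edgeR's quasi-likelihood F-test over all genes tested. *Sox2* was at 361, 363 and 382 CPM in *Sox2* controls and at 116, 150 and 152 CPM in *Sox2* mutants, a log2 fold change of -1.40 ± 0.10. *Nr2f1* was at 311, 370 and 380 CPM in *Nr2f1* controls and at 105, 151 and 101 CPM in *Nr2f1* mutants, a log2 fold change of -1.57 ± 0.14. *Sox2* was also called down in the *Nr2f1* line, from 351, 343 and 374 CPM in controls to 238, 279 and 212 CPM in mutants (-0.55 ± 0.09, FDR = 0.0063). In *Sox2* mutants *Nr2f1* was at -0.39 ± 0.13 (FDR = 0.056). *Rora*, which carries the Cre, was at -1.96 ± 0.12 on the log2 scale in *Sox2* mutants (FDR = 2.07e-05) and at -0.25 ± 0.11 in *Nr2f1* mutants (FDR = 0.20). Microglial markers moved with genotype in the *Sox2* line, where 5 of 6 were upregulated and their summed level was 119 to 130 CPM in controls and 240 to 274 CPM in mutants. Markers of astrocytes and radial glia did so too, with 5 of 8 upregulated and sums of 1945 to 2452 CPM in controls and 2880 to 3327 CPM in mutants. For the *Nr2f1* line edgeR called 0 of the 6 microglial markers, with 4 at an unadjusted p below 0.05, and 1 of the 8 astrocyte markers. The summed levels were apart there too, with microglial markers at 96.0 to 108 CPM in controls and 115 to 144 CPM in mutants and astrocyte markers at 1663 to 1726 CPM and 1794 to 2018 CPM. Of 6 markers of GABAergic neurons 1 was called up in the *Sox2* line and edgeR called 0 in the *Nr2f1* line, but all 6 were higher in the mutants of both lines at an unadjusted p below 0.05, with median log2 fold changes of 0.53 and 0.52. Their sums were 122 to 166 CPM in *Sox2* controls, 189 to 227 CPM in *Sox2* mutants, 138 to 153 CPM in *Nr2f1* controls and 146 to 271 CPM in *Nr2f1* mutants. Of 4 markers of dividing cells edgeR called 0 in both lines, with 4 and 0 at an unadjusted p below 0.05, and their sums were 133 to 176 CPM in *Sox2* controls and 188 to 225 CPM in *Sox2* mutants. Of 8 markers of thalamic glutamatergic neurons 2 were up and 3 down in the *Sox2* line, and 2 were up in the *Nr2f1* line. In *Sox2* mutants *Slc17a6*, the vesicular glutamate transporter gene, was at -0.96 ± 0.10 (FDR = 0.00034) and *Gbx2* at 1.67 ± 0.16 (FDR = 0.00021). The median log2 fold changes of the 8 were 0.08 and 0.34. Their sums overlapped in the *Sox2* line, at 1320 to 1737 CPM in controls and 1545 to 1641 CPM in mutants. In the *Nr2f1* line they were 1623 to 1763 CPM and 1769 to 1988 CPM. None of these markers was at 0 in a library, and their part in the changes below was not tested. In bulk tissue fewer cells of a type and less RNA per cell cannot be told apart. The pools also differed in the sex of their animals. Summed male-specific genes were at 43.6, 69.1 and 97.4 CPM in *Nr2f1* controls and at 0.00, 32.5 and 52.1 CPM in *Nr2f1* mutant libraries A, B and C. The female-specific *Xist* was at 484, 383 and 0.283 CPM in these controls and at 1150, 506 and 532 CPM in these mutants. Sex thus went in part with genotype in the *Nr2f1* line. *Xist* was also low in *Sox2* control library 2 and mutant library 1, at 0.189 and 0.463 CPM.

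Of the 37 members, 29 were expressed at P0, in the sense that they passed the filter on low counts (filterByExpr) in both lines. To compare levels between genes, counts were divided by transcript length and scaled to a common sum (TPM) in the controls, 6 libraries in all. *Thra*, the gene of thyroid hormone receptor alpha, stood far above all others at 950 ± 22.6 TPM (SD, n = 6), 11.8 times the level of the next member and above 99.5% of all genes. *Rxrb* followed at 80.6 ± 4.01 TPM, *Nr1d1*, which encodes REV-ERB alpha, at 70.3 ± 8.82 TPM and *Nr1h2*, the gene of the oxysterol receptor LXR beta, at 61.9 ± 4.99 TPM. Then came *Nr2c2*, *Rara*, *Ppard*, *Rxrg* and *Esrra*, with means from 39.6 down to 23.9 TPM, and 16 members in all had at least 5 TPM in the controls of both lines. *Thrb*, the gene of thyroid hormone receptor beta, was low beside *Thra* at 0.959 ± 0.183 TPM. Of the retinoic acid receptors, *Rara* was at 35.5 TPM, *Rarg* at 11.7 TPM and *Rarb* at 2.35 TPM.

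The order is firm only in places. Of the 28 pairs of neighbours in it, 6 had ranges over the 6 control libraries that did not overlap, namely *Thra* over *Rxrb*, *Nr1h2* over *Nr2c2*, *Esrra* over *Nr1d2*, *Nr2e1* over *Esrrg*, *Nr6a1* over *Ppara* and *Nr3c2* over *Esr1*. The ranges of the other neighbours overlapped. Overlap of ranges does not compare genes within a library, and *Esrrb* lay above its neighbour *Pparg* in each of the 6 control libraries. *Esr1*, the gene of oestrogen receptor alpha, was the lowest of the expressed members at 0.147 ± 0.048 TPM, with 7 to 25 counts per library. The filter works on counts and not on TPM. Thus *Hnf4g* and *Nr5a1*, which did not pass it in both lines, stood above *Esr1* at 0.226 and 0.173 TPM. The transcript length used was that of 1 transcript per gene, and a gene whose main transcript is shorter has its TPM understated.

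**Figure D1:**
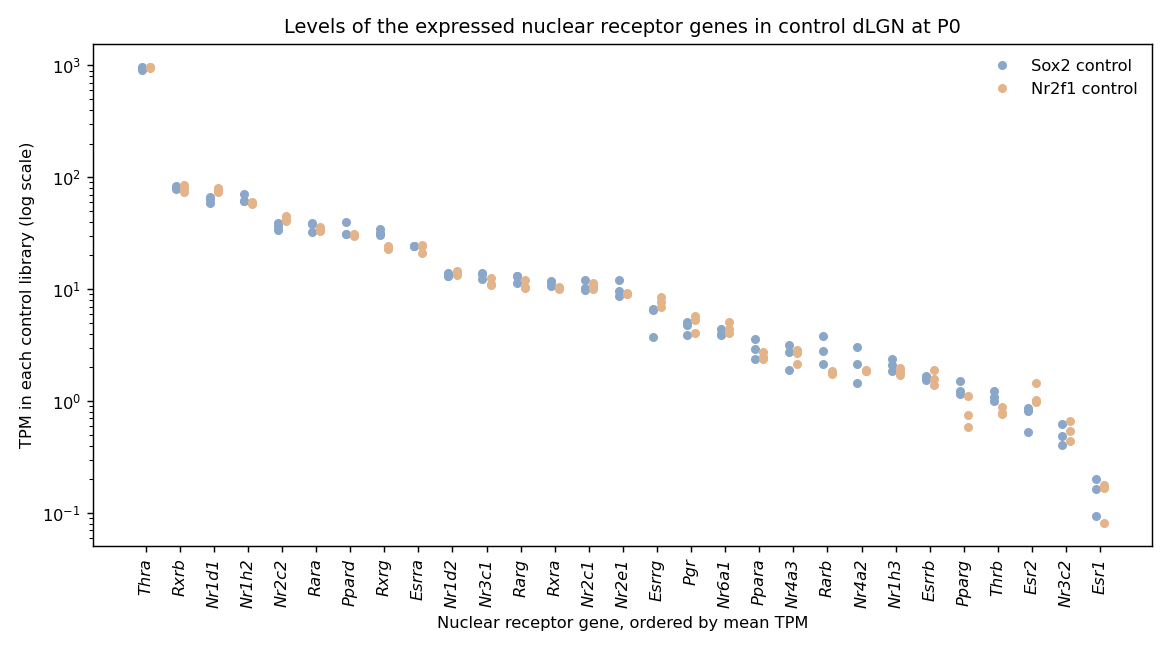
Level of each of the 29 expressed nuclear receptor genes in TPM (log scale) for 3 controls of the Sox2 line and 3 controls of the Nr2f1 line, 1 point per library. Thra stands at about 950 TPM, 11.8 times above the next gene, and Esr1 is the lowest at about 0.147 TPM.

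The remaining 8 members were *Nr1h4*, *Vdr*, *Nr1i3*, *Hnf4a*, *Hnf4g*, *Nr2e3*, *Nr5a1* and *Nr5a2*, genes best known from liver, gut, kidney, retina, gonad and adrenal gland. *Nr2e3*, a photoreceptor gene, had 2 counts over the 12 libraries together and *Nr1h4*, the gene of the bile acid receptor, had 4. *Nr1i3* had 16, *Hnf4a* 24, *Vdr*, which encodes the vitamin D receptor, 41, and *Hnf4g* 85. *Nr5a1* and *Nr5a2* had between 1 and 23 counts per library and passed the filter in the *Sox2* line alone. There *Nr5a1* had 11, 9 and 3 counts in controls and 23, 20 and 13 in mutants. Both reached the filter's minimum count of 10 in all mutant libraries but not in all controls. Passing the filter thus favoured higher values in mutants, and their tests carry no weight. A count of 3, which is the upper limit that a count of 0 allows, corresponded to 0.0599 to 0.0763 CPM in these libraries.

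In the *Sox2* line 31 members were tested, and 4 of them were called, which is 12.9% against 8.08% of all 15602 genes tested. *Rxrg* and *Nr3c1* were upregulated, as were 3.9% of all genes, and *Nr1d1* and *Pparg* downregulated, as were 4.19%. *Rxrg* alone was called in the *Nr2f1* line, which is 3.45% of 29 members against 2.54% of 15600 genes. It was upregulated, as were 1.22% of all genes, and edgeR called 0 members down there, against 1.32% of all genes, with 12 members in both directions at an unadjusted p below 0.05 and *Nr1d1* called down by DESeq2. At FDR<0.05 there were 10 members in the *Sox2* line, or 32.3% against 19.8% of all genes, and 3 in the *Nr2f1* line, or 10.3% against 7.4%. The values of mutants lay wholly above or below those of controls for 12 of 31 members in the *Sox2* line, or 38.7% against 37.9% of all genes, and for 11 of 29 in the *Nr2f1* line, or 37.9% against 28.6%. *Nr5a1*, which passed the filter through its mutants, is among the 12. The median log2 fold change of the members tested was 0.11 in *Sox2* mutants and 0.20 in *Nr2f1* mutants, beside 0.00 and 0.01 over all genes tested. The lines share no controls, and *Rxrg* was the member called in the same direction in both, as were 1.05% of the 15397 genes tested in both.

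**Figure D2:**
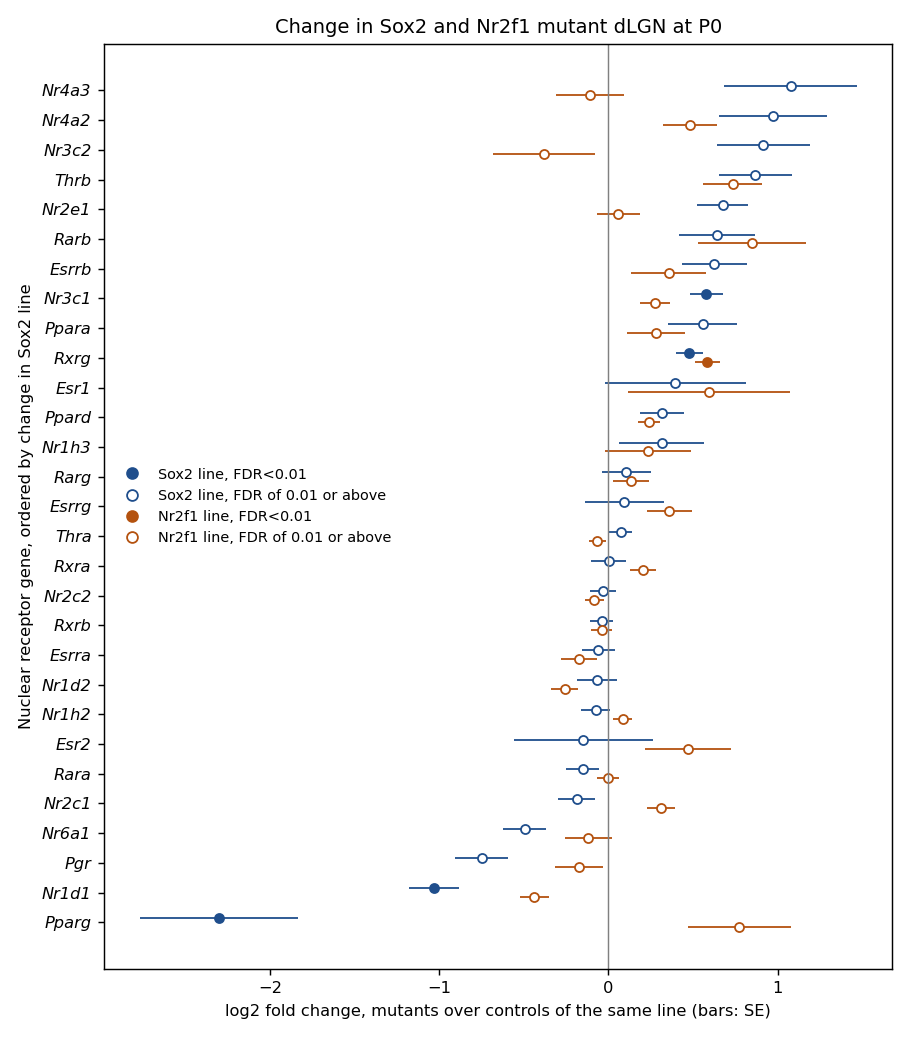
log2 fold change of mutants over controls with its SE for the 29 members tested in both lines, blue for the Sox2 line and orange for the Nr2f1 line, filled where FDR<0.01. Rxrg is filled in both lines at 0.48 and 0.58, Pparg lies at -2.30 in the Sox2 line and at 0.77 in the Nr2f1 line, and Thra lies near 0 in both.

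Among the thyroid hormone receptors, the abundant one did not pass the test, and the rare one was higher in the mutants of both lines at FDR<0.05 but not at FDR<0.01. *Thra* was at 768, 791 and 740 CPM in *Sox2* controls and at 846, 782 and 789 CPM in mutants, a log2 fold change of 0.07 ± 0.07, and *Nr2f1* mutants differed from their controls by -0.06 ± 0.05. Its groups overlapped in both lines. *Thrb* was at 2.22, 2.58 and 2.05 CPM in *Sox2* controls and at 4.80, 3.00 and 4.71 CPM in mutants. The groups did not overlap, and mutant library 3 lay nearest to the controls. The log2 fold change was 0.87 ± 0.22 with an FDR of 0.022. For *Nr2f1* controls *Thrb* was at 1.52, 1.81 and 1.59 CPM and for *Nr2f1* mutants at 2.81, 2.62 and 2.77 CPM, with a log2 fold change of 0.73 ± 0.18 and an FDR of 0.036. The mutant pools lay close together and above every control. *Thrb* was called in 5 of 17 alternatives of the *Sox2* line, among them DESeq2 (FDR = 0.0030) and the fit without mutant library 3 (1.06, FDR = 0.0068).

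Of the 9 genes of thyroid hormone transport and deiodination 8 were tested, 2 were called in the *Sox2* line (1 up, 1 down) and 0 in the *Nr2f1* line, where 3 had an unadjusted p below 0.05 in edgeR and DESeq2 called 1. The median log2 fold changes were 0.27 and -0.09. *Slc7a8*, which encodes the amino acid and thyroid hormone transporter LAT2, was downregulated by -0.58 ± 0.12 (FDR = 0.0096). *Slc7a8* was called in 9 of 17 alternatives and lost the call without *Sox2* control library 1 or 2 or mutant library 1 or 4, with a highest FDR of 0.049. *Dio2*, whose product activates the hormone, was low at 1.54 CPM in *Sox2* controls and did not pass the test in either line.

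Of the RXR genes, whose products pair with thyroid hormone, retinoic acid, PPAR and LXR receptors among others, *Rxrg* was upregulated in both lines and the others did not pass the test. *Rxrg* was at 22.3, 21.6 and 24.1 CPM in *Sox2* controls and at 30.3, 32.5 and 31.9 CPM in *Sox2* mutants, a log2 fold change of 0.48 ± 0.08 (FDR = 0.0035). It was at 16.0, 16.8 and 15.9 CPM in *Nr2f1* controls and at 24.0, 23.4 and 25.6 CPM in *Nr2f1* mutants, a log2 fold change of 0.58 ± 0.07 (FDR = 0.0020). In each line all 3 mutant pools lay above all 3 controls, and the spread within a group was small. The GABAergic markers, with medians of 0.53 and 0.52 as given above, were higher in the mutants of both lines as well, and their part in the change of *Rxrg* was not tested. *Rxra* had log2 fold changes of 0.00 ± 0.10 and 0.20 ± 0.08 and *Rxrb* of -0.04 ± 0.07 and -0.04 ± 0.06 in the *Sox2* and *Nr2f1* lines. The call of *Rxrg* was lost in the *Sox2* line without control library 1 or 2 or mutant library 3 or 4, with values from 0.45 to 0.47 and FDR from 0.011 to 0.023, and in the *Nr2f1* line without control library B or E or mutant library A, with values from 0.57 to 0.59 and FDR from 0.011 to 0.013. With the level of meningeal markers as a covariate it was 0.41 (FDR = 0.013) and 0.51 (FDR = 0.056), and with male-specific genes as a covariate it was 0.60 (FDR = 0.027) in the *Nr2f1* line.

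*Rxrg* lies on chr1:167598362-167639623 (GRCm38) and has 2 annotated starts, and the count tables, which sum over transcripts, do not tell which of them was used. The 300 bases around each start, 250 before it and 50 from it on, are shown because *Rxrg* was the member called in both lines. They were taken from RefSeq (GRCm38.p6), both on the plus strand, at chr1:167598112-167598411 and chr1:167618015-167618314. Capitals mark AGGTCA, the element bound by many nuclear receptors, ACAAT, the core bound by SOX proteins, and CACGTG, the E-box bound by clock factors, or their reverse complements.
Rxrg first start: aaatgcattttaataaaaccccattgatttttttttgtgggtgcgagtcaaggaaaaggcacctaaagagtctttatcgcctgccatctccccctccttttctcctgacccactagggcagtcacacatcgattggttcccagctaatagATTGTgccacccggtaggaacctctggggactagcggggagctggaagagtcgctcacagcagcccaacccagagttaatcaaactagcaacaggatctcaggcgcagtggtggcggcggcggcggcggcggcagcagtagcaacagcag
Rxrg second start: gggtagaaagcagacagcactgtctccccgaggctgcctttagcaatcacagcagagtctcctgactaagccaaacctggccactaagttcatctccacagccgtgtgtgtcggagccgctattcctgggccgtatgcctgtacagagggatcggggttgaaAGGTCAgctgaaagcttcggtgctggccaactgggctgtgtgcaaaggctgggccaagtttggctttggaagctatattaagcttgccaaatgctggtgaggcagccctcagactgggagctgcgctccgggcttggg
The first window holds 1 ACAAT, on the minus strand, and the second 1 AGGTCA, on the plus strand. Of all 32851 promoter windows of this length, 16.3% hold AGGTCA, 31.0% ACAAT and 7.15% CACGTG on either strand, and of the 52 windows of the 33 members that have one, 11 hold AGGTCA, 11 ACAAT and 5 CACGTG. A match says only that these letters are there.

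The retinoic acid receptors did not pass the test in either line. *Rara* and *Rarg* had log2 fold changes of -0.15 ± 0.10 and 0.11 ± 0.15 in *Sox2* mutants and of 0.00 ± 0.07 and 0.13 ± 0.11 in *Nr2f1* mutants. *Rarb*, which is itself induced by retinoic acid, was at 2.19, 2.96 and 3.90 CPM in *Sox2* controls and at 3.87, 5.26 and 4.98 CPM in mutants (FDR = 0.071). The *Nr2f1* line had 1.78, 1.77 and 1.87 CPM in controls and 3.61, 1.65 and 4.52 CPM in mutants (FDR = 0.14), so that mutant libraries A and C were high and library B was at the level of the controls. Meningeal fibroblast markers, of which 0 of 6 were called in either line (3 and 6 had an unadjusted p below 0.05 in edgeR), had sums of 1923 and 2361 CPM in these libraries A and C, 1015 CPM in B and 701 to 1066 CPM in the controls. For the *Sox2* line the sums were 916 to 1836 CPM in controls and 1407 to 3194 CPM in mutants. With the markers as a covariate *Rarb* was at -0.11 ± 0.33 in *Nr2f1* mutants and at 0.37 ± 0.22 in *Sox2* mutants, neither past the test. The covariate was chosen after the data were seen, so these fits cannot decide the part of the meninges. Without *Nr2f1* mutant library B, *Rarb* was called at 1.17 (FDR = 0.0039).

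Of the 14 genes that make, carry or break down retinoic acid, all 12 tested were higher in *Sox2* mutants and all 11 tested were higher in *Nr2f1* mutants, with median log2 fold changes of 0.77 and 0.66 beside 0.00 and 0.01 over all genes. In the *Sox2* line 2 were called, both upregulated. *Dhrs3*, which returns retinaldehyde to retinol, changed by 1.05 ± 0.16 (FDR = 0.0022), and *Crabp2*, which carries retinoic acid to its receptors, by 1.35 ± 0.23 (FDR = 0.0041). *Dhrs3* lost the call without control library 1 or 2 or mutant library 4 (FDR 0.012 to 0.016). *Crabp2* lost it without control library 1 or 2 or mutant library 1 or 4, with its highest FDR at 0.023. Of the *Nr2f1* values edgeR called 0, against 2.54% of all genes, with 7 at an unadjusted p below 0.05, and DESeq2 called 2. *Aldh1a2*, the retinoic acid synthase of the meninges, was at 6.52, 11.1 and 10.6 CPM in *Nr2f1* controls and at 23.0, 11.7 and 26.1 CPM in mutants (FDR = 0.047), high in the same libraries A and C. With the meningeal markers as a covariate, 10 of the 12 were higher in *Sox2* mutants and 7 of the 11 in *Nr2f1* mutants, the medians were 0.62 and 0.11, and 4 genes were called in the *Sox2* line.

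**Figure D3:**
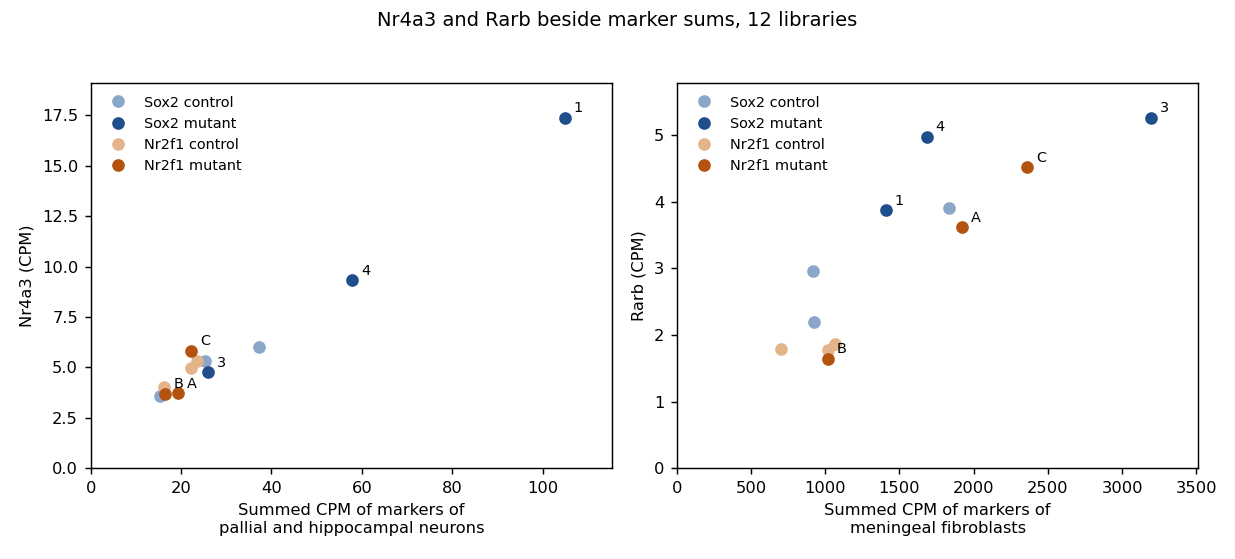
Left, CPM of Nr4a3 against the summed CPM of 5 markers of pallial and hippocampal neurons, and right, CPM of Rarb against the summed CPM of 6 markers of meningeal fibroblasts, 1 point per library, with mutant libraries named. Nr4a3 is highest in Sox2 mutant library 1 at 17.4 CPM, where the pallial sum is 105 CPM, and Rarb in the Nr2f1 line is high in mutant libraries A and C and low in B, as is the meningeal sum.

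The peroxisome proliferator-activated receptors (PPAR) sense fatty acids and pair with RXR. *Pparg* had 38, 35 and 43 counts in *Sox2* controls and 2, 9 and 13 counts in *Sox2* mutants, or 0.859, 0.828 and 1.06 CPM against 0.0487, 0.206 and 0.288 CPM. All mutant pools lay below all controls, and library 1 was the lowest. The log2 fold change was -2.30 ± 0.47 (FDR = 0.0087). Controls of the *Nr2f1* line had 32, 20 and 24 counts of *Pparg* and mutants 38, 46 and 43, at 0.77 ± 0.30 (FDR = 0.16), with all mutant pools above all controls. The *Sox2* call rests on few counts and was lost when any of the 6 libraries was left out, with values from -2.80 to -1.87 and FDR from 0.015 to 0.032, and with male-specific genes (-2.17, FDR = 0.018) or pallial markers (-1.86, FDR = 0.041) as a covariate. *Ppara* and *Ppard* did not pass the test, with 0.56 ± 0.20 and 0.32 ± 0.13 in *Sox2* mutants and 0.28 ± 0.17 and 0.24 ± 0.07 in *Nr2f1* mutants. *Ppard* was called in the *Sox2* line with pallial markers as a covariate, at 0.57 (FDR = 0.0036), and was 0.09 with meningeal markers (FDR = 0.61). Of the LXR genes, *Nr1h2* had log2 fold changes of -0.07 ± 0.09 and 0.08 ± 0.06 and *Nr1h3* of 0.31 ± 0.25 and 0.23 ± 0.25, none past the test.

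Genes known to respond to nuclear receptors were listed by function, and 4 of 17 were called in the *Sox2* line (3 up, 1 down) and 1 of 17 in the *Nr2f1* line (up), with median log2 fold changes of 0.42 and 0.01. The shares called over all genes were 8.08% and 2.54%. *Abca1*, the cholesterol exporter induced by LXR, was at 139, 150 and 158 CPM in *Sox2* controls and at 277, 357 and 320 CPM in mutants, with 1.097 ± 0.097 (FDR = 0.00013). Its mutant and control pools were far apart, and it was called in 17 of 17 alternatives. *Plin2*, which coats lipid droplets and responds to PPAR, rose by 0.47 ± 0.09 (FDR = 0.0089). *Angptl4*, a secreted inhibitor of lipoprotein lipase and PPAR target, was at 14.2, 10.9 and 11.0 CPM in *Nr2f1* controls and at 23.2, 19.4 and 23.9 CPM in mutants, with 0.88 ± 0.12 (FDR = 0.0034). The groups did not overlap. It lost the call without control library D or E or mutant library A or C, with values from 0.82 to 0.85 and FDR from 0.013 to 0.023. *Plin2* was called in 10 of 17 alternatives of the *Sox2* line, and lost the call when any library but control library 3 was left out (highest FDR 0.046). Microglia also express *Abca1*, and the part of the microglial increase given above was not tested.

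*Nr1d1* had the smallest p of the members in the *Sox2* line. It was at 56.8, 60.5 and 53.2 CPM in *Sox2* controls and at 20.9, 34.1 and 28.4 CPM in *Sox2* mutants. No mutant pool came near a control, and the log2 fold change was -1.03 ± 0.15 (FDR = 0.0016). *Nr2f1* controls had 64.5, 72.2 and 69.8 CPM and *Nr2f1* mutants 55.0, 53.4 and 44.1 CPM, with -0.44 ± 0.09 (FDR = 0.016). The groups again did not overlap, but the value did not pass FDR<0.01, and DESeq2 called it (FDR = 4.91e-05). The *Sox2* call was kept in 15 of 17 alternatives and missed without control library 2 (-0.98, FDR = 0.010) or mutant library 4 (-1.05, FDR = 0.010). *Nr1d2*, which encodes REV-ERB beta, was at -0.07 ± 0.12 on the log2 scale (FDR = 0.73) in *Sox2* mutants and at -0.26 ± 0.08 (FDR = 0.084) in *Nr2f1* mutants.

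*Nr1d1* lies on the minus strand at chr11:98767932-98775377 and *Thra* at chr11:98740776-98769006 (GRCm38), so that the ends of both genes share 1075 bases. Whether strand was used in counting is not given in the sources used here, and reads from the shared stretch may have been split between them. *Thra*, at 740 CPM or more in *Sox2* controls, was far above *Nr1d1* and did not pass the test in either line. The 300 bases around the start of *Nr1d1*, from RefSeq (GRCm38.p6) at chr11:98775328-98775627, are shown on the minus strand because this member fell most clearly in the *Sox2* line, with capitals as for *Rxrg*.
Nr1d1 start: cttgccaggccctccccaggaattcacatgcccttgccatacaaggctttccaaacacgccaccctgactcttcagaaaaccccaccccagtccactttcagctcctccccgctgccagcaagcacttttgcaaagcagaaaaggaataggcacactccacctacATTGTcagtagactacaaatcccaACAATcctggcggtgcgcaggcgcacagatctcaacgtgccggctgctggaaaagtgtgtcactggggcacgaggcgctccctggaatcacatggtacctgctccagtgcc
The window holds 2 ACAAT, 1 on each strand, and neither AGGTCA nor CACGTG.

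Genes of the circadian clock were described beside *Nr1d1*, whose product represses *Arntl*, *Nfil3* and others. Of 15 clock genes 4 were called in the *Sox2* line (1 up, 3 down) and 2 in the *Nr2f1* line (both down), with median log2 fold changes of -0.26 and -0.03. Over all genes 8.08% and 2.54% were called. *Arntl*, which encodes the clock activator BMAL1, was at 55.5, 66.5 and 53.6 CPM in *Sox2* controls and at 33.3, 37.8 and 36.3 CPM in mutants (-0.71 ± 0.10, FDR = 0.0011). *Nr2f1* controls had 60.7, 56.8 and 56.6 CPM and mutants 43.8, 47.3 and 42.7 CPM (-0.38 ± 0.06, FDR = 0.0072). *Arntl* thus fell in both lines, and *Nr1d1* was lower in both, called in the *Sox2* line and at FDR = 0.016 in the *Nr2f1* line. *Nfil3*, a repressor of genes with D-boxes, was at 26.0, 24.9 and 26.8 CPM in *Sox2* controls and at 15.5, 13.1 and 16.5 CPM in mutants (-0.79 ± 0.10, FDR = 0.00093), and in the *Nr2f1* line it went from 23.1, 24.8 and 22.3 CPM to 16.4, 17.6 and 16.9 CPM (-0.46 ± 0.08, FDR = 0.0070). *Bhlhe41*, a repressor that acts at E-boxes, was upregulated in the *Sox2* line from 6.44, 5.51 and 6.74 CPM to 11.4, 13.5 and 16.0 CPM (1.13 ± 0.15, FDR = 0.00085). *Hlf*, an activator of D-box genes, fell by 0.73 on the log2 scale there (FDR = 0.0064). *Arntl*, *Nfil3* and *Bhlhe41* kept their calls in 17 of 17 alternatives of the *Sox2* line. *Hlf* lost its call without control library 1 or 2 or mutant library 1 or 4, with a highest FDR of 0.037. The *Nr2f1* calls of *Arntl* and *Nfil3* were lost without control library B, D or E or mutant library A or C, with FDR from 0.017 to 0.042, and with meningeal markers as a covariate, at -0.26 (FDR = 0.23) and -0.43 (FDR = 0.15). The hour of dissection, with which the level of clock genes can vary, is not given in the sources used here, and its part was not tested.

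**Figure D4:**
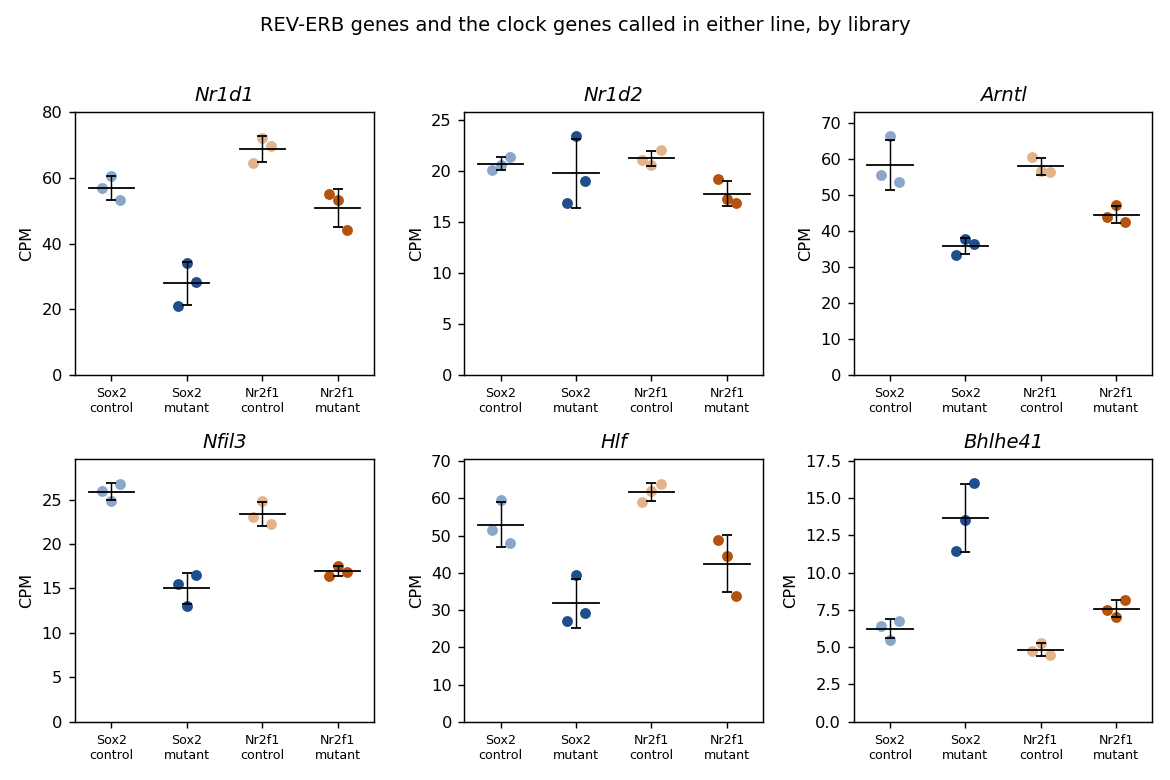
CPM of the REV-ERB genes Nr1d1 and Nr1d2 and of the 4 clock genes called in either line, 1 point per library, with the mean (line) and SD (bar) of each group of 3. Nr1d1, Arntl, Nfil3 and Hlf are lower in the mutants of both lines, Bhlhe41 is higher, and Nr1d2 overlaps between the groups of the Sox2 line.

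Of the genes of corticosteroid and progesterone receptors, 1 of 3 was called in the *Sox2* line and edgeR called 0 in the *Nr2f1* line. *Nr3c1*, the gene of the glucocorticoid receptor, was upregulated from 28.3, 26.2 and 29.2 CPM in controls to 36.99, 46.7 and 41.3 CPM in mutants (0.58 ± 0.10, FDR = 0.0035). It was at 22.6, 26.3 and 22.4 CPM in *Nr2f1* controls and at 29.4, 26.6 and 30.2 CPM in *Nr2f1* mutants (0.28 ± 0.09, FDR = 0.085). In both lines the mutants lay above the controls, with a narrow gap in the *Nr2f1* line. The call was lost without *Sox2* control library 1 or 2 or mutant library 4 (0.53 to 0.59, FDR 0.018 to 0.022) and with the meningeal covariate (0.43, FDR = 0.010). *Nr3c2*, the gene of the mineralocorticoid receptor, had 52, 33 and 37 counts in *Sox2* controls and 82, 58 and 95 in mutants (0.91 ± 0.28, FDR = 0.044), without overlap, and -0.38 ± 0.30 in *Nr2f1* mutants (FDR = 0.48). *Pgr*, the gene of the progesterone receptor, was at 10.8, 11.7 and 8.89 CPM in *Sox2* controls and at 6.11, 5.24 and 7.33 CPM in mutants (-0.75 ± 0.16, FDR = 0.010), just outside the threshold, and was called in 8 of 17 alternatives. It was called, for example, without *Sox2* control library 3 (-0.84, FDR = 0.0041). *Pgr* overlapped between the *Nr2f1* groups, with -0.17 ± 0.14.

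*Sgk1*, a kinase gene induced by corticosteroids, had the smallest p of all pathway genes in the *Sox2* line and moved opposite to *Nr3c1*. It was at 81.4, 75.8 and 79.1 CPM in *Sox2* controls and at 28.5, 30.3 and 35.8 CPM in mutants (-1.32 ± 0.09, FDR = 3.68e-05), and was called in 17 of 17 alternatives. *Nr2f1* controls had 74.7, 83.7 and 76.8 CPM and mutants 57.9, 64.1 and 49.9 CPM (-0.45 ± 0.09, FDR = 0.016). Of other genes that glucocorticoids induce, *Fkbp5* had log2 fold changes of -0.11 and 0.02, *Tsc22d3* of -0.18 and -0.18 and *Zbtb16* of -0.02 and -0.12 in the *Sox2* and *Nr2f1* lines, none past the test. Some other receptor-responsive genes were higher in *Sox2* mutants without a call by edgeR. *Angptl4* was at 0.54 ± 0.13 (FDR = 0.019), *Pdk4* at 0.58 ± 0.19 (FDR = 0.059) and *Klf9* at 0.59 ± 0.21 (FDR = 0.075). Of all 17 receptor-responsive genes 13 were higher there and 4 lower, and of all 15602 genes tested 7813 were higher.

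The oestrogen receptor genes were low and did not pass the test, with *Esr1* at 0.40 ± 0.42 and 0.60 ± 0.48 and *Esr2* at -0.15 ± 0.41 and 0.47 ± 0.25. Of the oestrogen-related receptors, which act without oestrogen on mitochondrial genes among others, *Esrra* and *Esrrg* had log2 fold changes of -0.06 ± 0.10 and 0.09 ± 0.23 in the *Sox2* line and of -0.17 ± 0.10 and 0.36 ± 0.13 in the *Nr2f1* line. *Esrrb* was at 2.40, 2.25 and 2.32 CPM in *Sox2* controls and at 3.26, 3.07 and 4.43 CPM in mutants (0.63 ± 0.19, FDR = 0.047). Library 4 stood above the other mutant pools. *Esrrb* overlapped between the *Nr2f1* groups, with 0.36 ± 0.22.

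Among the orphan receptors, *Nr2e1*, which encodes TLX, a regulator of neural stem cells and radial glia, was at 10.4, 9.59 and 13.2 CPM in *Sox2* controls and at 16.7, 15.4 and 20.8 CPM in mutants (0.68 ± 0.15, FDR = 0.013). All mutants lay above all controls, as did the summed astrocyte and radial glia markers given above. Without control library 3, where both were highest among controls, *Nr2e1* was called (0.83, FDR = 0.0030). In *Nr2f1* mutants its log2 fold change was 0.06 ± 0.12 and the groups overlapped. *Nr6a1*, which encodes germ cell nuclear factor, was at 7.55, 7.91 and 8.74 CPM in *Sox2* controls and at 6.28, 5.19 and 5.69 CPM in mutants (-0.50 ± 0.13, FDR = 0.025), without overlap, with -0.12 ± 0.14 in *Nr2f1* mutants. The testicular receptors *Nr2c1* and *Nr2c2* had log2 fold changes of -0.19 ± 0.11 and -0.03 ± 0.07 in the *Sox2* line and of 0.31 ± 0.08 (FDR = 0.055) and -0.08 ± 0.06 in the *Nr2f1* line.

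The NR4A receptor genes *Nr4a2* and *Nr4a3* respond quickly to neuronal activity, and *Nr4a2* is also expressed in parts of the cortex and claustrum. Of 6 immediate early genes, which respond likewise, 1 was called up in the *Sox2* line, with a median log2 fold change of 0.43. Their sums overlapped, at 43.0 to 88.1 CPM in *Sox2* controls and 61.1 to 80.0 CPM in mutants, and their part was not tested. *Nr4a3* was at 5.99, 5.30 and 3.58 CPM in *Sox2* controls and at 17.4, 4.76 and 9.32 CPM in mutants (1.08 ± 0.39, FDR = 0.081). *Nr4a2* was at 3.55, 2.58 and 1.70 CPM and at 6.99, 3.18 and 5.24 CPM (0.97 ± 0.32, FDR = 0.059). Library 1 was highest for both, then library 4, and library 3 lay within the range of the controls. The summed markers of pallial and hippocampal neurons had the same order, 105, 57.8 and 25.9 CPM in mutant libraries 1, 4 and 3 and 15.4 to 37.3 CPM in controls. Of these 5 markers edgeR called 0, with 4 at an unadjusted p below 0.05. With them as a covariate *Nr4a3* was at -0.03 ± 0.18 and *Nr4a2* at 0.24 ± 0.21, neither past the test. The covariate was chosen after the data were seen and had the order of these genes in the mutants, so this fit cannot decide the part of such cells. With meningeal markers as a covariate both were called, at 1.75 (FDR = 0.00032) and 1.55 (FDR = 0.0010). In the *Nr2f1* line, where the sums were 16.3 to 23.6 CPM in all libraries, *Nr4a3* had a log2 fold change of -0.11 ± 0.20 and *Nr4a2* of 0.48 ± 0.16 (FDR = 0.10).

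**Figure D5:**
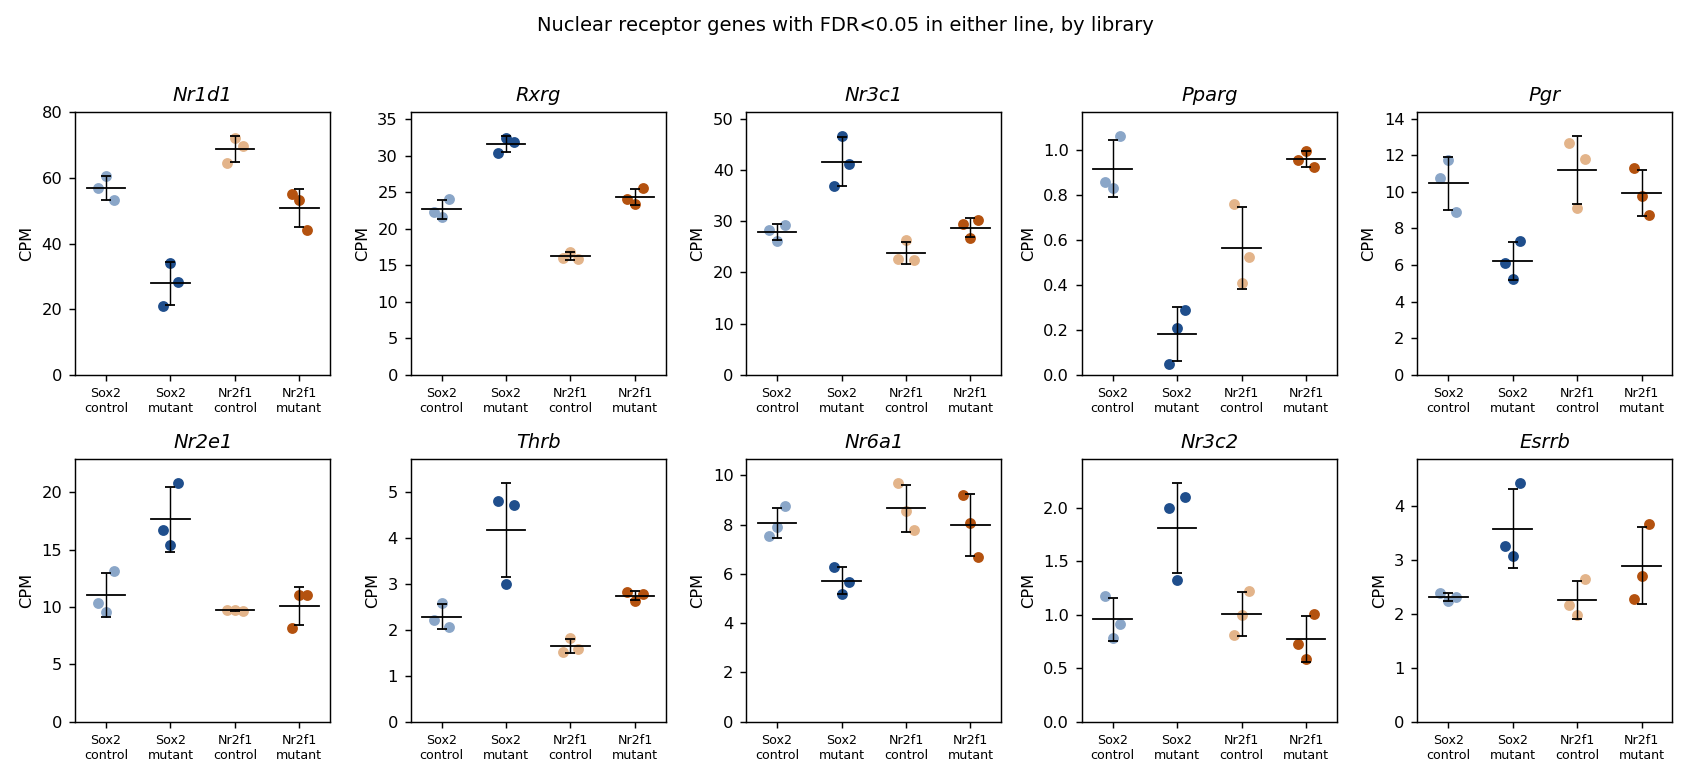
CPM of the 10 members with FDR<0.05 in either line, 1 point per library, with the mean (line) and SD (bar) of each group of 3. In the Sox2 line no mutant library overlaps with a control for any of the 10. Among Nr2f1 libraries this holds for Rxrg, Nr1d1, Thrb, Nr3c1 and Pparg, and Pparg lies above its controls there and below them in the Sox2 line.

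Of 20 coregulators, the proteins through which the receptors act, 1 was called in each line, which was *Hr* both times and downregulated, and the median log2 fold changes were -0.12 and -0.01. *Hr* encodes Hairless, a corepressor of thyroid hormone, ROR and vitamin D receptors and itself induced by thyroid hormone in the brain. It was at 37.4, 44.9 and 47.7 CPM in *Sox2* controls and at 19.9, 17.3 and 19.2 CPM in mutants (-1.20 ± 0.11, FDR = 0.00012). *Nr2f1* controls had 41.9, 37.4 and 34.9 CPM and mutants 11.2, 20.1 and 11.2 CPM (-1.42 ± 0.20, FDR = 0.0034). Mutants were far below controls in both lines, with *Nr2f1* mutant library B nearest to them. The *Sox2* call held in 17 of 17 alternatives. The *Nr2f1* call was lost when any library but mutant library B was left out, with values from -1.48 to -1.28 and FDR from 0.010 to 0.021, and was kept at -0.88 with meningeal markers as a covariate.

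Whether a change differed between the lines was taken from the interaction term of 1 fit to all 12 libraries. Of 32 members 1 was called, or 3.13% against 1.44% of 15989 genes, and 1 had FDR<0.05, against 3.36%. That member, lower in the *Sox2* line as were 1.11% of all genes, was *Pparg*, whose change in *Sox2* mutants was lower by 3.07 ± 0.57 on the log2 scale than that in *Nr2f1* mutants (interaction -3.07, FDR = 0.0079). The call was lost when any of 9 single libraries was left out, with values from -3.15 to -2.87 and FDR from 0.014 to 0.027. *Nr1d1*, called in the *Sox2* line and not in the other, had an interaction of -0.59 ± 0.19 (FDR = 0.13), and *Nr3c1* one of 0.31 ± 0.14 (FDR = 0.28), neither past the threshold. For *Rxrg* it was -0.10 ± 0.10 (FDR = 0.73) and for *Thrb* 0.14 ± 0.27 (FDR = 0.88), and a value that misses the threshold does not show that the lines respond alike.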

How the data were processed

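The dLGNs of newborn mice were pooled, 3 animals to a library, in 4 groups of 3 libraries. Per the study's methods and the submitters' processing notes, the authors aligned reads with STAR to the mouse RefSeq transcriptome (genome build mm10) and estimated expression with RSEM. The deposited values are expected counts per gene, not normalized, in 1 table per line, and 7.77% of them were not whole. Reads shared by overlapping or similar genes were divided by the authors' estimation. Columns name the group of a library but not which sample it is.

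Expected counts were rounded and filtered (filterByExpr, minimum count 10, minimum total 15). Each line was tested with edgeR 4.0.16 in R 4.3.3 (TMM, glmQLFit and glmQLFTest), DESeq2 1.42.0 serving as an alternative, and the difference between lines by an interaction over 12 libraries. TPM came from counts divided by 1 transcript length per gene (GENCODE M21). With 3 libraries in a group, p-values weigh the difference between groups against the spread between pools. The spread between single animals was not measured.

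*Dio2*, *Aldh1a2*, *Fkbp5*, *Tsc22d3*, *Zbtb16*, *Pdk4* and *Klf9* were named after their values were seen. The 37 members, the pathway lists (coregulators, retinoid supply and breakdown, thyroid hormone transport and deiodination, receptor-responsive genes, clock genes; 75 genes) and the markers were chosen with earlier results of these data known. Members called, or with FDR<0.05, were given in every library, other members by level and change. Pathway genes called in either line were named, except for some not reported here, and given by library for the 4 with the smallest p in each line. Promoter windows from RefSeq matched 33 of 37 members, and that of *Nr3c1* is not shown. Scripts were tested on simulated data.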

Additional observations from a re-analysis of the deposited data

Results flagged for a closer look

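For 6 of the genes described, the change in *Sox2* mutants differed from that in *Nr2f1* mutants by the interaction test (edgeR, FDR<0.01). *Pparg* had an interaction of -3.07 ± 0.57 (FDR = 0.0079), falling in the first line and not past the test in the second, at no more than 46 counts in any library, and was called in 8 of 18 alternatives. *Sgk1* had -0.86 ± 0.13 (FDR = 0.0026), lower in the mutants of both lines and more so in *Sox2* mutants, called in 15 of 19 alternatives. *Cry2*, a clock repressor, had -0.47 ± 0.09 (FDR = 0.0094), with -0.26 ± 0.08 in *Sox2* mutants and 0.22 ± 0.06 in *Nr2f1* mutants, and it was called in 6 of 19 alternatives. The deleted genes differed as the crosses imply, *Sox2* with -0.84 ± 0.15 (FDR = 0.0060) and *Nr2f1* with 1.19 ± 0.22 (FDR = 0.0074), each called in 9 of 19 alternatives. Even so, *Sox2* was also called down in *Nr2f1* mutants (-0.55 ± 0.09, FDR = 0.0063). *Rora* had -1.70 ± 0.18 (FDR = 0.00012), called in 19 of 19. The causes of these differences were not tested. Groups of 3 are too small to test for single libraries that stand apart.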

How the results depend on the processing

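In the *Sox2* line 4 members were called. DESeq2 called 8, as did the likelihood ratio test, FDR<0.05 gave 10, a fit over all 12 libraries 7, and 13 pathway genes became 22 at FDR<0.05 and 8 with male-specific genes as covariate. In the *Nr2f1* line 1 member was called, 2 without a filter or by DESeq2, 3 by the likelihood ratio test or at FDR<0.05, and 0 with male-specific genes or meningeal markers as covariate (the meningeal and pallial covariates were chosen after seeing the data; edgeR, 9 and 8 members at an unadjusted p below 0.05). The 4 pathway genes became 10 without a filter, 15 by DESeq2 or the likelihood ratio test, 14 at FDR<0.05, 0 with male-specific genes as covariate (23 at an unadjusted p below 0.05) and 1 with meningeal markers. The interaction called 1 member, and 0 when 10 counts in every library were required, where *Pparg* was not tested, or with male-specific genes as covariate (7 and 4 at an unadjusted p below 0.05). Requiring 5 TPM in controls left 16 members in place of 29.

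Leaving out 1 library gave 0 to 5 members in the *Sox2* line, 0 to 2 in the *Nr2f1* line and 0 to 1 for the interaction, and 7 to 17 and 0 to 14 pathway genes. The members fell to 0 without *Sox2* control 2 or mutant 4 and without *Nr2f1* control B or E or mutant A, with 9 to 14 at an unadjusted p below 0.05. Fewer libraries then carried the test. No called gene reversed its direction under any alternative run.

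With a replicate block on the numbers 1 and 3 that control and mutant columns of the *Sox2* line share, 7 members and 20 pathway genes were called. The control and the mutant library without a shared number have no partner in that fit and do not inform its comparison. These counts thus rest on the pairs numbered 1 and 3, not on the whole line, and little was left to estimate the spread. Labels do not say that a number marks a litter, and the deviations of same-numbered libraries correlated at 0.23 and 0.22, against -0.39 to 0.27 for other pairs. No paired analysis was possible for the *Nr2f1* line because its columns share only the letter B, nor for the interaction because it spans both lines.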
